A study of Mus musculus with 4 samples.

Results

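The insulin-like growth factor (IGF) axis was followed in mouse fetal liver through 9 genes, the ligands Igf1 and Igf2, the receptors Igf1r and Igf2r, and the binding proteins Igfbp1, Igfbp2, Igfbp3, Igfbp4 and Igfbp5. Members were chosen by name and not by their values, and every non-control probe assigned to a transcript of a member was kept. This gave 12 probes of the 56605 on the array, for 9 of the 22909 gene symbols with a usable probe. On all 4 arrays, all 12 probes gave a signal well above background, and all 12 passed the filters, so that each member was tested.

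IGF1 and IGF2 are small secreted peptides that drive growth before and after birth, and both signal through the tyrosine kinase receptor IGF1R. IGF2R is a different kind of receptor, which carries mannose 6-phosphate-tagged enzymes to lysosomes and removes IGF2 from the cell surface. In blood and tissue the peptides are held by binding proteins, which are cut by proteases such as PAPPA and PAPPA2. The fetal liver is a main site of Igf2 and of several binding proteins, and at this stage it is also the organ in which red blood cells are made.

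The livers came from E14.5 fetuses carried by C57BL/6J dams. No transgene or engineered allele is described for either group, and both share the mutation of Nnt that the study ascribes to this substrain. The dams of the control diet (CD) group received 4.3% of their energy as fat and 19.2% as protein, and those of the high-fat diet (HFD) group 60% as fat and 20% as protein, from mating until collection. Each group held 2 arrays, which the series describes as biological replicates, and the number of fetuses or dams behind an array is not given in the sources used here. One-colour arrays were used, on which more labelled RNA makes a brighter spot. Levels are log2 intensities from which the 75th percentile of the array was subtracted, so that 0 marks a probe as bright as that percentile. Levels of different probes are not compared, since probes bind their targets unequally well.

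The liver identity of the samples was checked first. All 13 hepatoblast markers, among them Alb, Afp and Ttr, were found well above background on every array, and so were all 12 erythroid and all 13 mesenchymal and stellate markers. All 4 arrays are labelled female, and the labels do not say whether this describes the dam or the fetus. The arrays with replicate number 1 of both diets carried all 4 Y-linked transcripts looked for and not Xist, whereas those with number 2 carried Xist and none of the 4, as judged by signal well above background. Eif2s3y had levels of 1.45 and 1.84 on the arrays numbered 1 and of -6.74 and -6.32 on those numbered 2. Each diet thus held 1 array with Y-linked transcripts, which the label female does not describe, and 1 with Xist. This difference and the replicate number cannot be told apart, and differences within the same number are given beside the members below. Across all tested probes the gap between the CD arrays had a median size of 0.35 on the log2 scale and that between the HFD arrays 0.12. The number of arrays limits the precision of every value.

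To ask whether the maternal diet was accompanied by a different IGF axis in the fetal liver, limma was used on the 12 probes, in a model fitted to all 41332 tested probes. No member passed the test. The log2 fold changes, HFD minus CD, which are called log2 changes below, lay between -0.55 for Igfbp5 and 0.12 for Igf2r, with 9 of 12 below 0 and a median of -0.10, where the median of all tested probes was 0.03. Of the 12 probes, 0 had an unadjusted limma p under 0.05 together with a change of at least 2-fold. By these cutoffs 0.293% of all tested probes were higher and 0.477% lower. The study draws lines at 2-fold and takes p under 0.05 as significant, but states no p cutoff for its gene list. At an unadjusted p under 0.05 alone the count of members was also 0, and after Benjamini-Hochberg adjustment limma called 0 probes on the whole array (adjusted p = 1.00 for each member). With 2 arrays in each group the smallest p that an exact two-sided permutation test allows is 0.333. For 10 of the 12 probes the 95% interval of the difference lay inside a 2-fold change in either direction, a share of 83.3% beside 74.0% of all tested probes. The exceptions were Igfbp2 and Igfbp5.

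**Figure D1:**
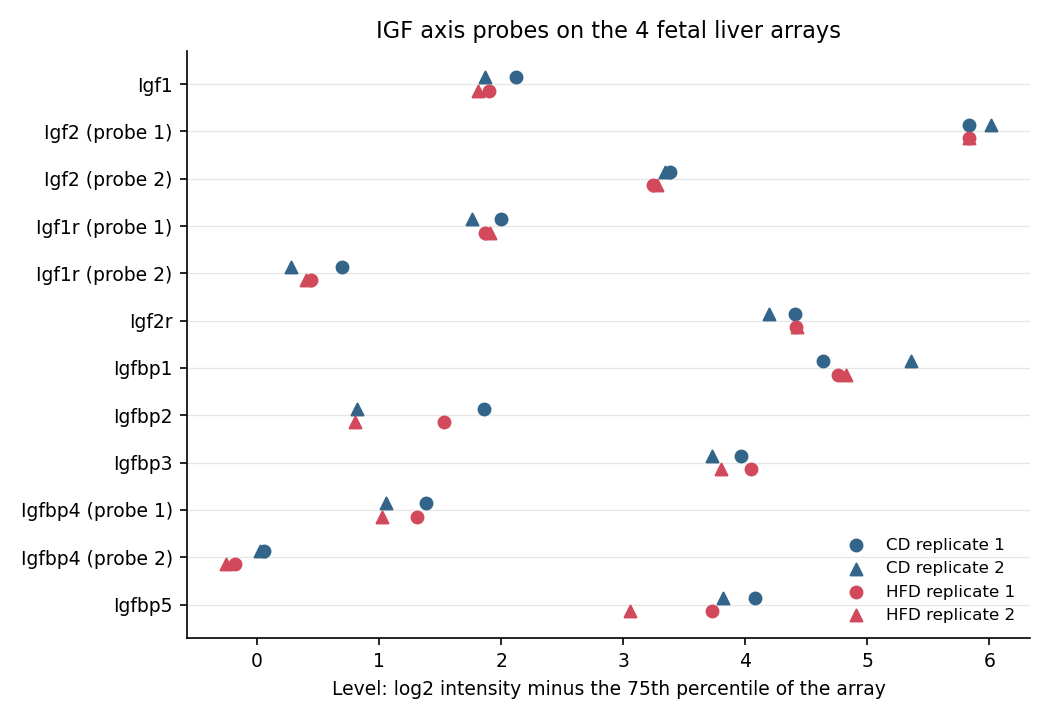
Level of each of the 12 IGF axis probes (log2 intensity minus the 75th percentile of the array) on the 2 CD arrays (blue) and the 2 HFD arrays (red), with circles for replicate 1 and triangles for replicate 2. Positions may be compared along a row and not between rows, and for 8 of the 12 probes the values of the 2 diets overlapped.

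**Figure D2:**
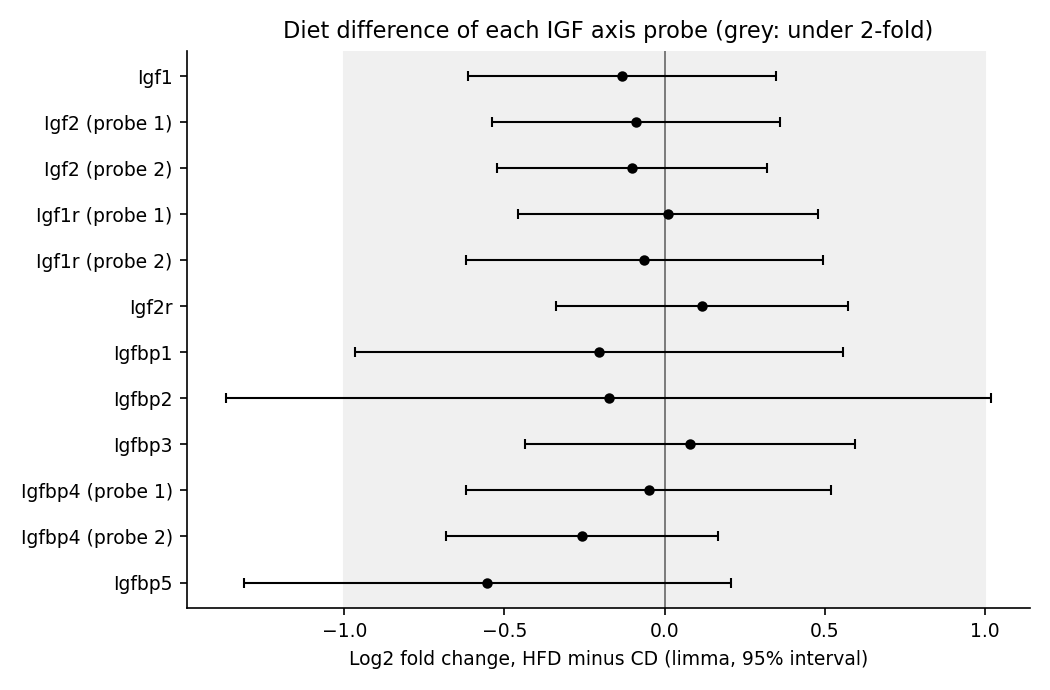
Log2 fold change, HFD minus CD, of each IGF axis probe with its 95% interval from limma, where the grey band marks changes under 2-fold. All 12 intervals include 0, and those of Igfbp2 and Igfbp5 reach outside the band.

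The ligands came first. Igf1, which in the adult is made by the liver under growth hormone, read 2.12 and 1.86 with the CD and 1.90 and 1.81 with the HFD. The groups overlapped, since HFD replicate 1 lay between the CD arrays, and the log2 fold change was -0.13 (standard error 0.18, 95% interval -0.61 to 0.35, limma p = 0.499, exact permutation p = 0.667). On the linear scale this interval runs from 0.653-fold to 1.27-fold.

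Igf2, the main growth factor of the fetus and an imprinted gene expressed from the paternal copy, had 2 probes. The brighter one (A_51_P516833) read 5.83 and 6.02 with the CD and 5.84 and 5.83 with the HFD. Only CD replicate 2 stood above the others, and the HFD arrays differed by 0.0031, a gap exceeded by 98.5% of all tested probes. The log2 change was -0.09 (standard error 0.17, 95% interval -0.54 to 0.36, limma p = 0.626, exact permutation p = 1.00). The other probe (A_55_P2118173) read 3.39 and 3.34 with the CD and 3.24 and 3.28 with the HFD. There both HFD arrays lay under both CD arrays, by a log2 fold change of -0.10 (standard error 0.16, limma p = 0.552, exact permutation p = 0.333). Both probes thus gave differences of like size, with intervals that left out a 2-fold change.

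The H19 transcript, made from the maternal copy next to Igf2 with no protein-coding gene starting between them in the RefSeq genes, read 8.26 and 8.65 with the CD and 8.41 and 8.45 with the HFD. As for the brighter Igf2 probe, CD replicate 2 was the highest and the HFD arrays lay close together. The difference of H19 between the diets was -0.03 on the log2 scale (standard error 0.21).

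Of the receptors, Igf1r, which passes on the signal of both ligands, had 2 probes. The brighter one (A_55_P2736764) read 2.00 and 1.76 with the CD and 1.87 and 1.91 with the HFD, and the other (A_51_P318365) read 0.69 and 0.28 against 0.44 and 0.40. With both probes the HFD arrays fell between the CD arrays. The log2 fold changes were 0.01 (standard error 0.18, 95% interval -0.46 to 0.48, limma p = 0.957, exact permutation p = 1.00) and -0.06 (standard error 0.21, limma p = 0.775, exact permutation p = 1.00). A larger difference between the diets than that of the brighter probe was found for 96.2% of all tested probes. Its sign was not settled, as quantile normalization gave -0.02.

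Igf2r, which clears IGF2 and is imprinted in the mouse with expression from the maternal copy, read 4.41 and 4.20 with the CD and 4.41 and 4.42 with the HFD. Both HFD arrays were above both CD arrays, but CD replicate 1 was only 0.0065 under HFD replicate 1. The log2 change was 0.12 (standard error 0.17, 95% interval -0.34 to 0.57, limma p = 0.533, exact permutation p = 0.333). Igf2r alone among the 12 probes had HFD values that both exceeded both CD values, as did 19.5% of all tested probes. Airn, the paternal antisense transcript that starts inside Igf2r, read 1.05 and 0.37 with the CD and 0.34 and 0.54 with the HFD. The groups overlapped, and its log2 change was -0.27 (standard error 0.28), or -0.61 without CD replicate 2 and 0.07 without CD replicate 1.

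The largest gaps between arrays of a diet and the largest differences between the diets were those of binding proteins. For Igfbp1 the sequence before its start site is shown, because this liver gene is known to be shut off by insulin through a short element there. In the RefSeq window (GRCm38.p6, chr11:7197537-7197786, plus strand) the capitals mark CAAAACA, the core of that element.
Igfbp1: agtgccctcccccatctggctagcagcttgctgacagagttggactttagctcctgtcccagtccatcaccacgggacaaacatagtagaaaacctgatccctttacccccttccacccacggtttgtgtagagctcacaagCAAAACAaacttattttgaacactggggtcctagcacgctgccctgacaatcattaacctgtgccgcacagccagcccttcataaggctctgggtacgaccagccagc
The core was searched on both strands of windows that hold 250 bases before and 50 bases after each RefSeq start site. It was present in 1 of the 13 windows of the members, that of Igfbp1, and in 6.28% of all 32851 windows. The cores of the hypoxia response element, ACGTG and GCGTG, were present in 3 of the 13 windows (Igf2, Igf2r and Igfbp2) and in 7 of the 13 (Igf1, Igf1r, Igf2r, Igfbp1, Igfbp2 and Igfbp3), beside 19.6% and 32.4% of all windows. Such matches describe the sequence only.

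Igfbp1 read 4.64 and 5.36 with the CD and 4.76 and 4.83 with the HFD. CD replicate 2 stood above the other 3 arrays, and CD replicate 1 was the lowest, so that the HFD arrays lay between them. The log2 change was -0.20 (standard error 0.29, 95% interval -0.97 to 0.56, limma p = 0.511, exact permutation p = 1.00). Its sign rested on the CD array used, since leaving out CD replicate 2 gave 0.16 and leaving out CD replicate 1 gave -0.57. In the latter case the unadjusted limma p was 0.0166, with an adjusted p of 0.222. The gap of 0.72 between the CD arrays was exceeded by 18.0% of all tested probes.

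The hepatoblast markers followed the same order on the CD arrays. Alb, the gene of serum albumin, read 8.14 and 9.06 with the CD and 8.53 and 8.54 with the HFD. The summed level of the 13 markers, in multiples of the 75th percentile of each array, was 1262 and 2012 with the CD and 1535 and 1556 with the HFD. The part of this difference between the CD arrays in the values of Igfbp1 was not tested. In whole tissue, fewer cells of a type and less RNA per cell cannot be told apart.

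Igfbp2, an abundant binding protein of fetal serum, read 1.86 and 0.82 with the CD and 1.53 and 0.80 with the HFD. In both diets replicate 1 was above replicate 2, by 1.04 on the log2 scale in the CD group and by 0.73 in the HFD group. Gaps as large were uncommon on these arrays, since larger ones were found for 7.45% of all tested probes in the CD group and for 5.11% in the HFD group. Between the diets the log2 fold change was -0.18 (standard error 0.45, 95% interval -1.37 to 1.02, limma p = 0.715, exact permutation p = 0.667), and a 2-fold change in either direction thus lay inside the interval. Within the arrays numbered 1 the difference was -0.33 and within those numbered 2 it was -0.02.

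Igfbp3, the main carrier of IGF in adult blood, read 3.96 and 3.72 with the CD and 4.04 and 3.80 with the HFD. Igfbp3 and Igfbp1 are neighbours, with no protein-coding gene starting between them. Replicate 1 was again above replicate 2 in both diets, by 0.24 in each, and the difference between the diets was 0.08 within each number. The log2 fold change of 0.08 had a standard error of 0.19 (95% interval -0.44 to 0.59, limma p = 0.703, exact permutation p = 0.667). With quantile normalization it was -0.0036.

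Igfbp4, a binding protein that holds back IGF until it is cut by PAPPA, had 2 probes which did not give the same picture. The brighter one (A_52_P257502) read 1.38 and 1.05 with the CD and 1.31 and 1.02 with the HFD, with replicate 1 above replicate 2 in both diets and groups that overlapped. The other (A_51_P398971) read 0.055 and 0.028 with the CD and -0.18 and -0.26 with the HFD, with both HFD arrays under both CD arrays. The log2 fold changes were -0.05 (standard error 0.21, 95% interval -0.62 to 0.52, limma p = 0.826, exact permutation p = 0.667) and -0.26 (standard error 0.16, 95% interval -0.68 to 0.17, limma p = 0.172, exact permutation p = 0.333). By the methods' t-test the latter had an unadjusted p of 0.0260 and an adjusted p of 0.957, and its change was far under 2-fold.

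Igfbp5, which is made by mesenchymal cells and binds to extracellular matrix, had the largest difference among the members. It read 4.08 and 3.81 with the CD and 3.73 and 3.06 with the HFD. Both HFD arrays lay under both CD arrays, and HFD replicate 2 was the lowest of all. The log2 change was -0.55 (standard error 0.29, 95% interval -1.31 to 0.21, limma p = 0.117, exact permutation p = 0.333), which is 0.682-fold with an interval from 0.403-fold to 1.15-fold. A larger difference was found for 6.74% of all tested probes. Without HFD replicate 2 the log2 fold change was -0.22 and without HFD replicate 1 it was -0.89, so that its size rested on the HFD array used. Within the arrays numbered 1 the difference was -0.35 and within those numbered 2 it was -0.76. Igfbp2, the neighbour of Igfbp5 with no protein-coding gene starting between them, did not share this order of the arrays.

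Including Igfbp5, 3 of the 12 probes had both HFD arrays under both CD arrays, namely those of Igfbp5 and the dimmer probes of Igf2 and Igfbp4. The same order was seen in 11.1% of all tested probes. The difference between the diets was larger than both gaps within the diets for only 2 probes, the dimmer ones of Igf2 and Igfbp4. Within the same replicate number, 6 of the 12 probes were lower with the HFD in both array pairs and 2 were higher in both. Single differences ran from -0.76 to 0.23, and none reached 2-fold. The share over all tested probes is not given for these counts or for that of the larger differences. The 12 probes hold 2 each for Igf2, Igf1r and Igfbp4, so they are not separate genes.

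**Figure D3:**
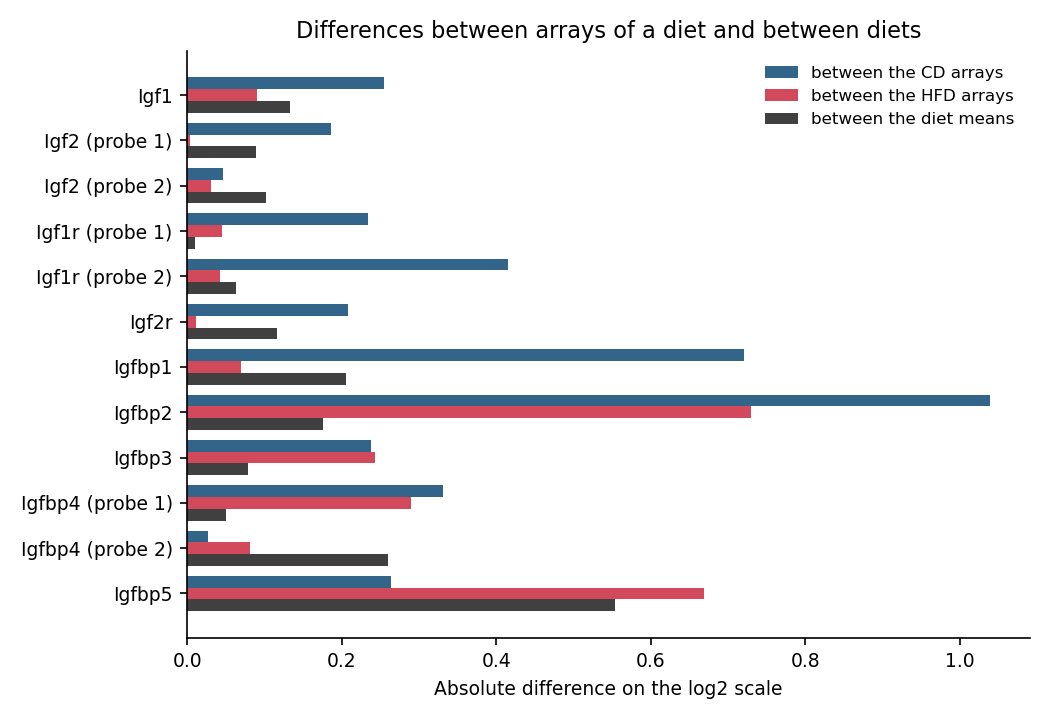
For each IGF axis probe, bars give the absolute log2 difference between the 2 CD arrays (blue), between the 2 HFD arrays (red) and between the means of the diets (grey). The gap between the CD arrays reaches 1.04 for Igfbp2 and 0.72 for Igfbp1, and only the second probes of Igf2 and Igfbp4 have a grey bar longer than both others.

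The samples also carried transcripts of other tissues. Of 15 listed trophoblast and decidua genes 14 had a usable probe, of which 11 were well above background on all 4 arrays. For 7 of the 14 genes both HFD arrays lay under both CD arrays, and for 0 both lay above. Over all tested probes 11.1% were lower in this way and 19.5% higher, a set that lacks the listed genes left out by the filters. Prl8a9, a placental member of the prolactin family, read 0.45 and 2.28 with the CD and -1.80 and -4.32 with the HFD, a log2 difference of -4.43. Psg18, a pregnancy-specific glycoprotein gene, differed by -4.68, but was well above background on only 1 of the 2 HFD arrays. The filters of the main fit left out 8 genes of the list, both of these included, so they have no limma test there. The study lists both among its genes lower with the HFD. The summed level of the 14 genes was 66.5 and 73.7 with the CD and 48.3 and 50.8 with the HFD, most of which was Gcm1 on 3 of the arrays. Gcm1 and Prl8a2 were not lower with the HFD, with log2 fold changes of 0.55 (standard error 0.48) and 0.06 (standard error 0.53). Without Gcm1, which was singled out after its values were seen, the other 13 genes summed to 16.4 and 54.3 with the CD and to 5.08 and 2.32 with the HFD. Relative to each gene's mean, the list median was 0.43 and 0.81 with the CD and -0.53 and -0.82 with the HFD. The 13 mesenchymal and stellate markers summed to 564 and 298 with the CD and to 399 and 443 with the HFD, with CD replicate 1 the highest and CD replicate 2 the lowest. Igfbp5 was higher on the CD arrays, which had more trophoblast and decidua signal. Within the CD, replicate 2 had the larger sum and the lower Igfbp5, at 3.81 against 4.08. The order of 2 arrays cannot show whether a gene follows a signal. For the HFD arrays the order of the sums depended on whether Gcm1 was counted. Igfbp2 and Igfbp5 were highest on the array with the most mesenchymal signal, CD replicate 1, and lowest on HFD replicate 2. Igf1, the dimmer Igf2 probe and both probes of Igf1r and Igfbp4 were also highest on CD replicate 1. The part of these cells in the values of Igfbp5 and Igfbp2 was not tested.

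Of the 87 marker genes tested, 2 passed both cutoffs, beside 0.764% of all named genes. Both were steroidogenic, namely Cyp11a1, the enzyme that starts steroid synthesis, and Nr5a1, a transcription factor of steroid-making cells. The 87 do not hold the genes that the filters left out, such as Prl8a9 and Psg18. With no CV filter 9 marker genes passed. Cyp11a1 read -1.56 and -2.78 with the CD and -0.72 and 0.13 with the HFD, and rose by 1.87 (standard error 0.52, adjusted p = 1.00 by limma). Nr5a1 rose by 1.20 (standard error 0.30, adjusted p = 1.00 by limma). Without CD replicate 2 the differences were 1.27 and 0.90 and neither gene passed, and Nr5a1 also failed without HFD replicate 2, at 0.94, and with normexp background correction, at 0.95. The median log2 change of the 6 tested steroidogenic genes was 0.86, and the list was highest on HFD replicate 2. On that array Igfbp5 was lowest, and so were Igf1, Igfbp2 and both Igfbp4 probes. The 8 neuron markers had a median of -0.63, with 2 past an unadjusted p of 0.05 and 0 past both cutoffs. They were highest on CD replicate 1, as were Igfbp2, Igfbp5, Igf1, the dimmer Igf2 probe and both probes of Igf1r and Igfbp4. The neuron list was lowest on HFD replicate 1, and Igfbp2 and Igfbp5 were lowest on HFD replicate 2. The part of these cells in the values of the members was not tested.

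Around the 9 members, 75 further genes in 7 lists were followed, each by its brightest probe. Of the 73 that were tested, 1 fell past both cutoffs and 0 rose. The log2 fold changes were above 0 for 43 and below 0 for 30, with a median of 0.03. The median of all 18192 tested genes with a name was 0.04, and 10482 of them were above 0. At an unadjusted limma p under 0.05 alone the counts were 1 lower and 0 higher, beside 1.46% and 1.38% of all named genes.

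That gene was Pappa2, a protease that cuts IGFBP3 and IGFBP5 and is made in the placenta. Pappa2 read -0.23 and -0.19 with the CD and -1.68 and -1.07 with the HFD, and the groups did not overlap. It fell by 1.16 on the log2 scale (standard error 0.26, 95% interval -1.84 to -0.48, limma p = 0.00787 before and 1.00 after adjustment, exact permutation p = 0.333). Without HFD replicate 1 the log2 fold change was -0.86 and the unadjusted limma p 0.0629, and by the methods' t-test the unadjusted p was 0.0620, so that both settings ended the call. The related protease gene Pappa, whose product cuts IGFBP4, read -1.03 and -1.57 with the CD and -1.78 and -1.85 with the HFD. Its log2 fold change was -0.52 (standard error 0.24), or -0.25 without CD replicate 1 and -0.79 when CD replicate 2 was left out. Both genes were highest on the CD arrays, as was the trophoblast and decidua signal given above, and the part of placental cells in the fall of Pappa2 was not tested. The other 6 carriers and proteases had log2 fold changes between -0.42 and 0.23.

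**Figure D4:**
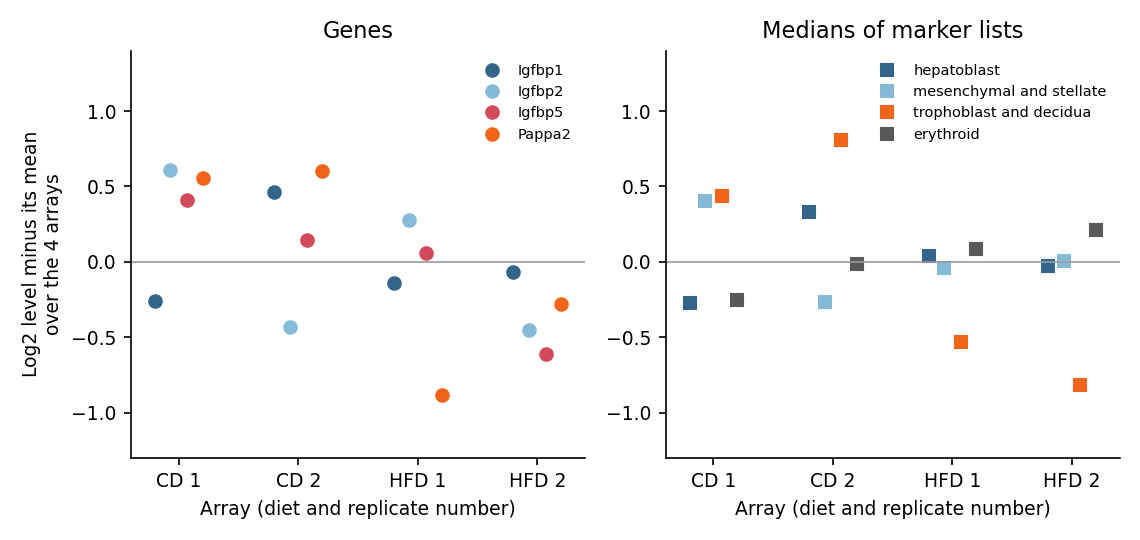
Log2 level of Igfbp1, Igfbp2, Igfbp5 and Pappa2 (left) and median log2 level of the hepatoblast, mesenchymal and stellate, trophoblast and decidua, and erythroid marker lists (right) on each array, all relative to the mean over the 4 arrays. The trophoblast and decidua median goes from 0.81 on CD replicate 2 to -0.82 on HFD replicate 2, Pappa2 is high on both CD arrays, and Igfbp2 is high on the 2 arrays numbered 1.

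Downstream of the receptors, 27 genes of insulin and IGF receptor signalling had a median log2 fold change of 0.01, and 0 of the 27 had an unadjusted limma p under 0.05. The insulin receptor gene Insr read -2.41 and -1.98 with the CD and -2.36 and -2.36 with the HFD, with a log2 fold change of -0.16 (standard error 0.21). The largest differences were those of Pik3ca, a catalytic subunit of PI3 kinase, at 0.37 (standard error 0.42) and of the kinase gene Mtor at -0.29 (standard error 0.26). Pik3ca was 1.17 and 0.03 on the CD arrays, a gap that was larger than its difference between the diets.

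The 9 genes of the growth hormone axis, which acts through STAT5 on Igf1 after birth, had a median of 0.13. Of the 9, 8 were above 0, beside 10482 of all 18192 named genes tested, and 0 passed an unadjusted limma p of 0.05. The largest differences were 0.50 for the prolactin receptor gene Prlr (standard error 0.40) and 0.22 for Socs3, a brake on cytokine signals (standard error 0.17). That of Prlr lay between 0.10 and 0.89 when 1 array was left out, and was -0.29 within the arrays numbered 1 and 1.29 within those numbered 2. A further 7 genes were those of the IGF2 mRNA-binding proteins and of Lin28, which bind RNA, and of Hmga, which binds DNA in chromatin. Lin28b read 2.62 and 2.91 with the CD and 3.27 and 3.10 with the HFD. Its log2 fold change of 0.42 did not pass the test (standard error 0.19, 95% interval -0.09 to 0.93). It was 0.28 without CD replicate 1 and 0.27 as the mean over its probes. The next largest difference was 0.21 for Igf2bp1 (standard error 0.21). The list had a median of 0.01.

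Of 12 neighbours at the Igf2 and Igf2r loci, 10 were tested, with a median of -0.03 and 0 past an unadjusted p of 0.05. The largest difference was -0.41 for Plg, the plasminogen gene, whose standard error was 0.48. The 7 genes of the mannose 6-phosphate pathway, in which IGF2R sorts lysosomal enzymes, had a median of 0.08, with 0.21 for the cathepsin gene Ctsl (standard error 0.19) and 0.14 for Ctsb (standard error 0.21). That of Ctsl was 0.0946 without CD replicate 1, and within the arrays numbered 2 it was -0.0182. None of the 7 had an unadjusted p under 0.05.

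Genes that rise in liver when insulin is low were set beside Igfbp1, which belongs to them. Pck1, the gene of a rate-limiting enzyme of glucose synthesis, read -3.97 and -3.22 with the CD and -3.10 and -2.56 with the HFD. Both HFD arrays were higher, with a log2 fold change of 0.77 (standard error 0.35, 95% interval -0.15 to 1.69, limma p = 0.0827, exact permutation p = 0.333). It reached 1.14 when CD replicate 2 was left out and 1.04 when HFD replicate 1 was, and both settings passed the cutoffs, with adjusted p = 0.335 and 1.00 by limma. It was 0.39 when CD replicate 1 was left out, 0.50 when HFD replicate 2 was, and 0.40 with normexp, and none of these passed. Ppargc1a, which drives Pck1, had a difference of 0.16 (standard error 0.18). The list of 6 genes had a median of 0.04, with 3 above 0 and 3 below.

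**Figure D5:**
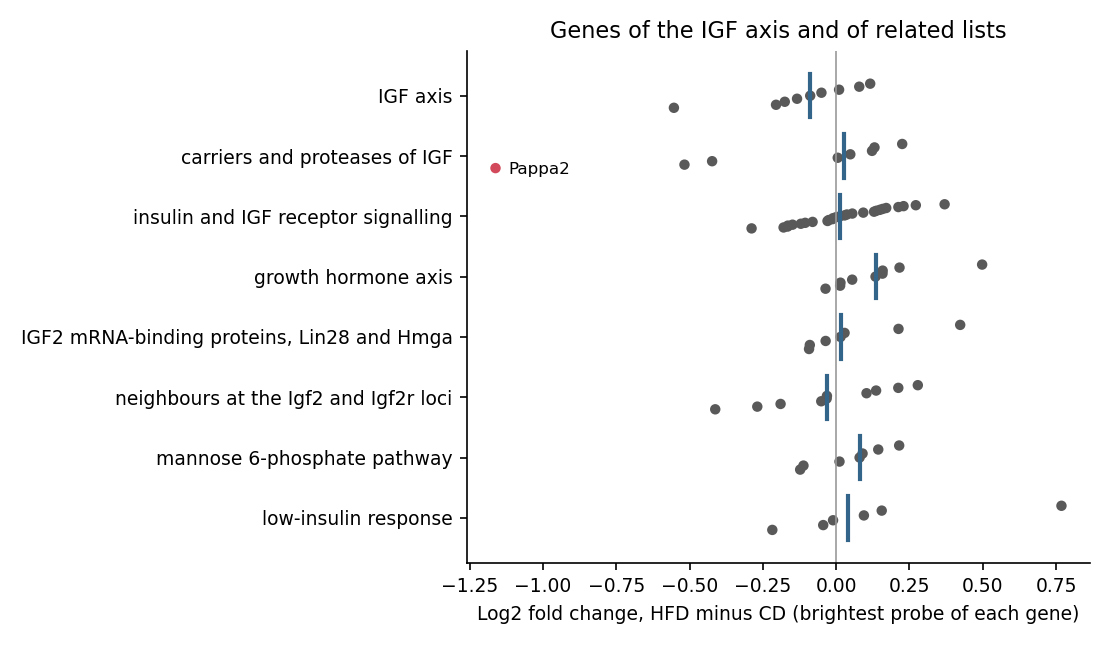
Log2 fold change, HFD minus CD, of the brightest probe of each tested gene in the IGF axis and in the 7 related lists, with blue bars at the list medians and red for an unadjusted limma p under 0.05. The medians lie between -0.09 for the IGF axis and 0.13 for the growth hormone axis, and Pappa2 at -1.16 is the only red point.

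Of the blood cell markers, which make up much of the tissue at this age, 10 of 12 erythroid genes were above 0 with a median of 0.29. Of all 18192 named genes tested, 10482 were above 0. Only Hbb-bh1, an embryonic globin, had an unadjusted limma p under 0.05 (log2 fold change 0.60, standard error 0.21, adjusted p = 1.00). The median over the brightest probes of the 9 IGF axis genes was -0.09, and the difference between these medians was not tested. On stained sections of fetal liver the study reports fewer hematopoietic cells with the HFD. Transcript levels and cells seen on sections are unlike measures, and they were not compared here.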

How the data were processed

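Cy3-labelled cRNA from fetal livers was hybridised by the authors to a mouse array, 1 array per sample, and read with Agilent Feature Extraction 11.0.1.1. The authors deposited for each spot an intensity that was background-subtracted and detrended but not scaled between arrays, with flags that are scores of 0 or 1. They also deposited a table of normalized signal, in which each array's intensities are divided by 1 constant. All 4 arrays lay on 1 slide read on 1 day.

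Log2 intensities were averaged over unflagged spots, and the 75th percentile of each array was subtracted. Probes below an array's 20th percentile (14980), as in the study's methods, or with a CV over 50% in both groups (284) were left out. The CV was taken on the linear scale, where the methods name the log scale, which was run as an alternative. Then the diets were compared over the other 41332 probes by limma 3.58.1 under R 4.3.3 (HFD minus CD, no covariates). Python 3.11.15 (matplotlib 3.10.9, pandas 2.3.3, numpy 2.4.6) was used for tables and figures. Gene symbols were assigned through the RefSeq genes of GRCm38.p6, to 32994 probes. No gene coordinates are given, as the array was designed on another build. Of 9 members, 9 matched promoter windows from RefSeq. A gene with several probes was represented by the one with the highest mean level. The steps were tested on simulated data. Sample groups came from the sample titles, age from the study's methods, and 0 columns of other samples were set aside.

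The members, the gene lists and the tests were chosen with earlier results of these data known. Named are all members, the genes of each related list with an unadjusted p under 0.05 and the 2 with the largest difference among those well above background on all arrays, H19, Insr, Alb, Afp and Ttr, and at most 2 genes of each marker list by the size of the difference. Gcm1, Prl8a2 and Nr5a1 were named after their values were seen. Alternatives were normexp with an offset of 50 (run on the median spot brightness), quantile normalization, the deposited table, other filters, the methods' t-test, plain or Welch-corrected, a replicate block, leaving out each array and the mean over the probes of a gene. Differences within the same replicate number were added after seeing the data.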

Additional observations from a re-analysis of the deposited data

How the results depend on the processing

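Of the 12 IGF axis probes, 0 passed the cutoffs under any alternative, the replicate block and each left-out array included. Over 17 alternatives, 153 values of the members were computed, of which 16 had another sign than the main value, 10 of them with an array left out and 3 within the arrays of 1 replicate number. With quantile normalization Igf1r was -0.0243 and Igfbp3 -0.0036, and with the mean over the probes of a gene Igf1r was -0.0268 and, outside the members, Ppargc1a -0.0088. Leaving out each array in turn, the log2 fold change ranged from -0.11 to 0.13 for Igf1r, from -0.18 to 0.0048 for Igf2, from -0.57 to 0.16 for Igfbp1, from -0.69 to 0.34 for Igfbp2, from -0.0429 to 0.20 for Igfbp3 and from -0.22 to 0.12 for Igfbp4, all of which include both signs. The ranges that kept their sign were -0.26 to -0.0057 for Igf1, 0.01 to 0.22 for Igf2r and -0.89 to -0.22 for Igfbp5. Of the genes around the axis, both signs were found for Airn (-0.61 to 0.0706), Ctsb (-0.0564 to 0.34), H19 (-0.23 to 0.16), Igf2bp1 (-0.0017 to 0.43), Insr (-0.38 to 0.0483), Mtor (-0.58 to 0.0082), Pik3ca (-0.20 to 0.94) and Plg (-1.07 to 0.24). The sign was kept by Ctsl (0.0946 to 0.34), Lin28b (0.28 to 0.57), Pappa (-0.79 to -0.25), Pappa2 (-1.46 to -0.86), Pck1 (0.39 to 1.14), Ppargc1a (0.0391 to 0.27), Prlr (0.10 to 0.89) and Socs3 (0.13 to 0.31). The cause of these changes was not tested.

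The replicate numbers are not known to pair the arrays. The correlation of the differences between replicates across the diets was -0.10 over all tested probes. With the replicate block, 177 probes were higher and 258 lower past the cutoffs, where the comparison without the block gave 121 and 197, and 0 passed after adjustment. The block left Igfbp5 at an unadjusted limma p of 0.0831 and Pappa2 at 0.00278.

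Over the whole array, normexp background correction called 13 probes higher and 35 lower, no filter on dim probes 385 and 460, probes well above background in a group 71 higher, the methods' t-test 41 and 56, and that test with Welch's correction 21 and 25. Leaving out an array gave 190 to 843 higher and 383 to 466 lower. Of the related genes, 0 passed by the methods' t-test with or without Welch's correction, and 1 to 3 with an array left out. Of the 87 marker genes tested 2 passed, Cyp11a1 and Nr5a1, and 5 passed with normexp, 10 in the deposited table, 4 with no filter on dim probes, 9 with no CV filter, 6 with the CV of the log2 signal, 0 by the methods' t-test with or without Welch's correction, and 3 to 7 with an array left out. No fit with slide or scan as a term was possible, because all arrays shared 1 slide and 1 day. With 2 arrays per diet, the intervals given above describe the precision of each difference, and the smallest detectable difference was not computed.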
